A study of Saccharomyces cerevisiae with 12 samples.

Results

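Described here are 10 yeast genes of iron supply: the surface reductases FRE1 and FRE2, the high affinity pair FET3 and FTR1, the siderophore transporters ARN1, ARN2 and SIT1, the low affinity transporter FET4, the haem oxygenase HMX1, and AFT1, the activator of the iron regulon. They were taken by symbol, as probe sets whose only gene in the platform annotation was one of the 10. Of the 5656 genes with a probe set of their own, all 10 were found, each with 1 probe set. The members were chosen by their role in iron supply together with their measured intensity changes on these same arrays, in all 6 groups, and FET4 and HMX1 were singled out for those changes. FET4 and HMX1 are therefore given as values with no test, and the adjusted p of the other members is a description rather than independent evidence.

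The study measured RNA of Saccharomyces cerevisiae on 12 one-colour oligonucleotide arrays, 2 for each of 6 groups. The groups were the TFIIH mutant C403A treated with methyl methanesulfonate (MMS, a DNA-methylating agent, at 0.03% for 30 minutes), C403A untreated, the TFIIH mutant C406A with MMS, C406A untreated, wild type (wt) with MMS, and wt untreated. TFIIH is a general transcription factor that also opens DNA in nucleotide excision repair. The labels name neither the subunit that carries the substitutions nor the strain background, how the alleles are carried, or whether a group's arrays stem from different cultures, so the spread between arrays may be technical.

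Budding yeast takes up iron by several routes. Surface reductases turn ferric into ferrous iron, which enters through the high affinity complex of the multicopper oxidase Fet3 and the permease Ftr1, or through the low affinity transporter Fet4, which also carries zinc and copper. Iron bound to siderophores made by other microbes enters whole through transporters of the Arn family. When iron is short, or when the mitochondrial iron-sulfur cluster signal is low, Aft1 moves into the nucleus and turns on most of these genes together with HMX1, which frees iron from haem.

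Arrays of a group correlated with r of 0.985 to 0.993 over the genes tested. SSL1 encodes a TFIIH subunit with cysteine-rich zinc-binding motifs. It had 2.87-fold more signal in untreated C403A than in untreated wt (log2 change 1.52 ± 0.08 SE, limma adjusted p = 1.95e-05), and 2.09-fold more in untreated C406A. This probe set measures the amount of SSL1 RNA and does not check the substitutions. The treatment check genes rose: MAG1, which encodes a DNA glycosylase for methylated bases, had log2 changes of 1.25, 1.12 and 1.57 with MMS in C403A, C406A and wt.

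Intensities below are the deposited signals after quantile normalization, on a linear scale, in the order array 1, array 2. A floor of 34.46, the 20th percentile of all values, marks what counts as measured, and fold changes are from log2 values on that floor. Differences are means of 2 arrays against 2, with standard errors that share 1 estimate of the spread over all groups, and a change passed where its p, after Benjamini-Hochberg adjustment over the 5368 genes tested, was under 0.05. Of the 10 members 9 were tested, since FRE2 lay above the floor on 1 of the 12 arrays. The normalized signal of the others lay above the floor on all 12 arrays, apart from HMX1 on 9.

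**Figure D1:**
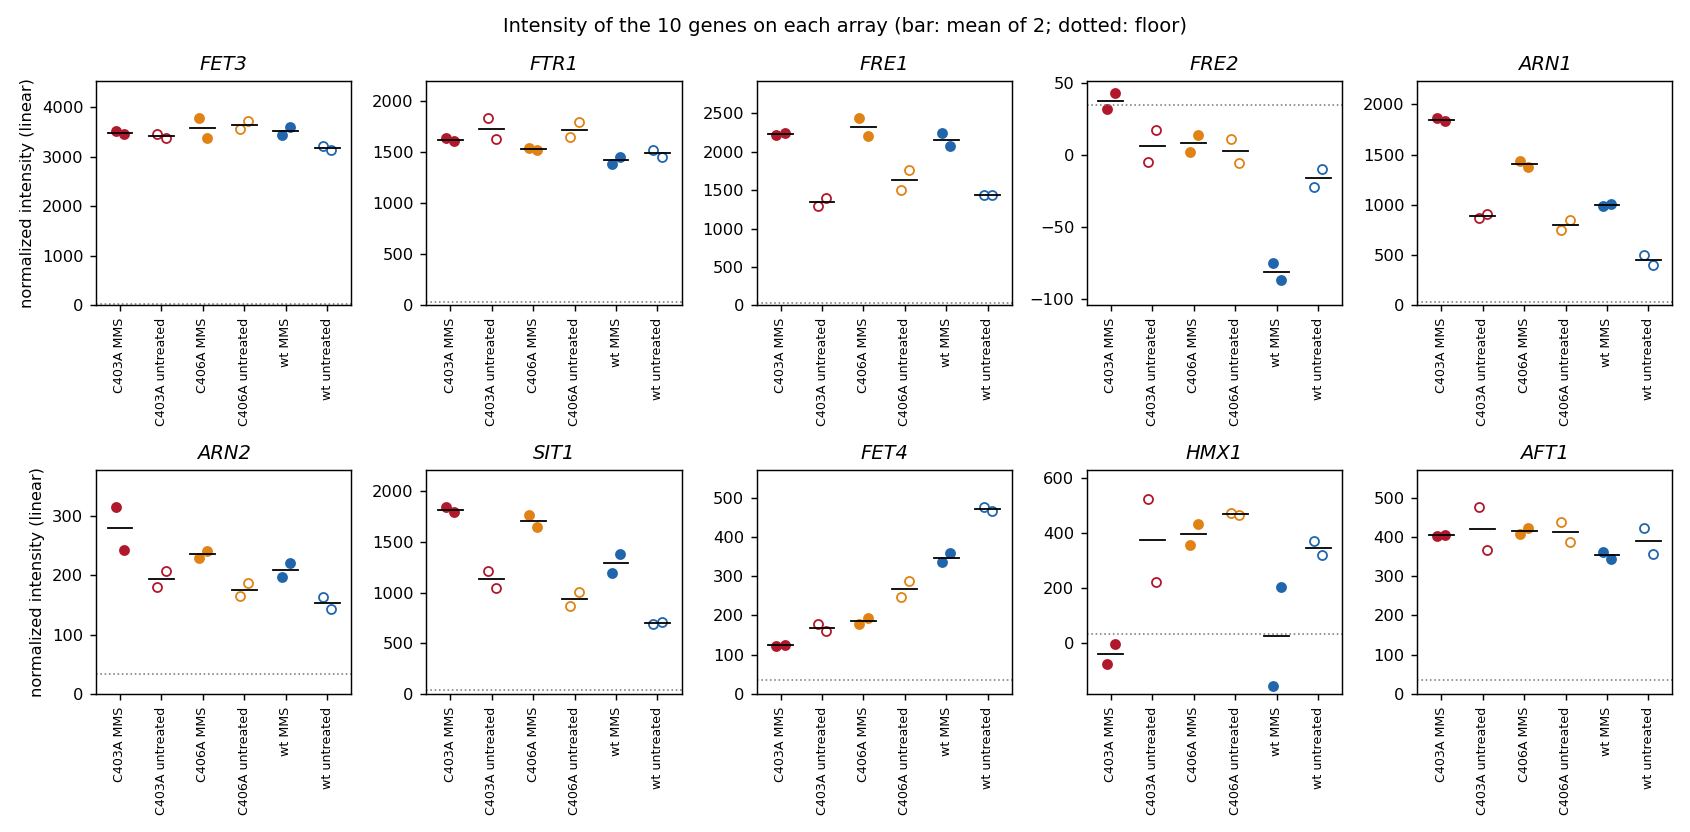
Normalized intensity (linear scale, vertical axis) of the 10 genes on each of the 12 arrays, by group on the horizontal axis. Filled points are MMS-treated and open points untreated arrays, bars are means of 2 arrays, and the dotted line is the floor at 34.46. ARN1 and SIT1 stand higher with MMS in each strain, FET4 steps down to 122.1 and 124.7 in MMS-treated C403A against 475.8 and 466.2 in untreated wt, and HMX1 lies below the floor on both MMS-treated C403A arrays and on 1 MMS-treated wt array.

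With MMS, 4 of the 7 members given with a p rose in C403A, 3 of 7 in C406A and 4 of 7 in wt, and none of the 7 fell. Among all 5368 genes, 8.42% rose in C403A, 12.7% in C406A and 19.1% in wt, while 7.13%, 11.2% and 13.8% fell. The median log2 change of the 7 was 0.52 in C403A, 0.43 in C406A and 0.45 in wt, beside all-gene medians of 0.00, 0.00 and 0.02. The 3 responses rest on separate arrays.

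FRE1, the main surface ferric and cupric reductase, had 2222 and 2248 in MMS-treated C403A, against 1292 and 1393 untreated. In C406A it had 2436 and 2210 with MMS, against 1504 and 1758 untreated. In wt it had 2248 and 2070 with MMS, against 1439 and 1441 untreated. All 6 treated arrays lay above all 6 untreated ones. FRE1 rose 1.67-fold in C403A (log2 change 0.74 ± 0.08 SE, limma adjusted p = 0.000665), 1.43-fold in C406A (0.51 ± 0.08, adjusted p = 0.0024) and 1.498-fold in wt (0.58 ± 0.08, adjusted p = 0.000746). Scaled to hybridization controls instead, the wt change was 0.45 with an adjusted p of 0.0543. The mutants did not pass against wt for FRE1: the differences were -0.10 in untreated C403A, 0.18 in untreated C406A, 0.05 in treated C403A and 0.11 in treated C406A, all with SE 0.08.

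FRE2, a related reductase under Aft1, gave 31.8 and 42.57 in MMS-treated C403A, and -4.88 and 16.9 in the untreated mutant. The other 8 arrays lay between -87.08 in MMS-treated wt and 13.89 in MMS-treated C406A. Only 1 treated C403A array passed the floor, so no fold change is given for FRE2.

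FET3, the multicopper ferroxidase of high affinity uptake, was nearly level across the groups, from a lowest array at 3130 in untreated wt to a highest at 3774 in treated C406A. It had 3516 and 3459 in treated C403A against 3455 and 3378 untreated, 3774 and 3368 in treated C406A against 3553 and 3719 untreated, and 3434 and 3607 in treated wt against 3214 and 3130 untreated. FET3 differed from wt by 0.11 and 0.20 in untreated C403A and C406A, and by -0.01 and 0.02 in the treated mutants. None of these differences passed (limma adjusted p = 0.26, 0.13, 0.92 and 0.90). The MMS change of FET3 did not pass in C403A (0.03 ± 0.06 SE, 95% interval -0.10 to 0.16, limma adjusted p = 0.807), C406A (-0.03, -0.16 to 0.11, adjusted p = 0.775) or wt (0.15, 0.02 to 0.28, adjusted p = 0.0834). The wt call depended on the arrays kept: without C406A MMS array 1 or array 2 the FET3 change had an adjusted p of 0.0449 and 0.0421.

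FTR1 encodes the permease through which iron oxidized by Fet3 passes. It had 1635 and 1603 in treated C403A against 1829 and 1627 untreated, 1540 and 1521 in treated C406A against 1650 and 1789 untreated, and 1384 and 1455 in treated wt against 1522 and 1449 untreated. The groups of C403A and of wt overlapped with and without MMS, and treated C406A lay below untreated C406A. No MMS change of FTR1 passed (-0.09, -0.17 and -0.07, all ± 0.07 SE, with limma adjusted p = 0.440, 0.117 and 0.514 in C403A, C406A and wt). FTR1 signal was above untreated wt by 0.22 in untreated C403A and by 0.21 in untreated C406A (limma adjusted p = 0.0712 and 0.156). With MMS it was above wt by 0.19 in C403A and 0.11 in C406A (adjusted p = 0.108 and 0.412). None of these differences passed. The untreated C403A difference was 0.30 without untreated C403A array 2.

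Of the 7 members given with a p, ARN1 changed most with MMS in C403A and wt, and SIT1 in C406A. ARN1, which encodes a transporter of ferrichrome-type siderophores, had 1861 and 1838 in MMS-treated C403A, against 871.3 and 908.5 untreated. In C406A it had 1432 and 1379 with MMS, against 747.6 and 845.7 untreated. In wt it had 987 and 1006 with MMS, against 499.1 and 404.9 untreated. No neighbouring pair of groups overlapped in the order treated C403A, treated C406A, treated wt, untreated C403A, untreated C406A, untreated wt. With MMS, ARN1 rose 2.08-fold in C403A (log2 change 1.06 ± 0.10 SE, limma adjusted p = 0.000244), 1.77-fold in C406A (0.82 ± 0.10, adjusted p = 0.000476) and 2.22-fold in wt (1.15 ± 0.10, adjusted p = 4.74e-05).

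SIT1, also called ARN3, encodes the transporter of ferrioxamine B. It had 1843 and 1791 in MMS-treated C403A, against 1217 and 1046 untreated. In C406A it had 1768 and 1648 with MMS, against 872 and 1009 untreated. In wt it had 1190 and 1384 with MMS, against 692.7 and 705.2 untreated. Within each strain the treated arrays lay above the untreated ones, while treated wt and untreated C403A overlapped. SIT1 rose 1.61-fold in C403A (0.69 ± 0.10 SE, limma adjusted p = 0.00255), 1.82-fold in C406A (0.86 ± 0.10, adjusted p = 0.000465) and 1.84-fold in wt (0.88 ± 0.10, adjusted p = 0.000242). With only the 4 C403A arrays in the fit, the C403A change had an adjusted p of 0.0602.

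ARN2, also called TAF1, encodes a transporter of triacetylfusarinine C. It had 315.5 and 243.8 in treated C403A against 180.6 and 207.9 untreated, 230.2 and 242.1 in treated C406A against 164.9 and 187 untreated, and 197.7 and 221 in treated wt against 163.2 and 144 untreated. The treated arrays of each strain lay above its untreated ones. ARN2 rose 1.43-fold in C403A (0.52 ± 0.15 SE, limma adjusted p = 0.0414) and 1.36-fold in wt (0.45 ± 0.15, adjusted p = 0.0412), and had a change of 0.43 ± 0.15 in C406A (adjusted p = 0.0617). These calls hung on single arrays: the wt change was 0.36 (adjusted p = 0.196) without untreated wt array 2, and the C403A change was 0.33 (adjusted p = 0.261) without treated C403A array 1. Leaving out any array of wt or of C406A ended both calls, except that the C403A call held without untreated wt array 1. The C403A call also ended without untreated C403A array 1 or 2. The C406A change passed without either treated C403A array (0.43, adjusted p = 0.0446 and 0.0442).

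**Figure D2:**
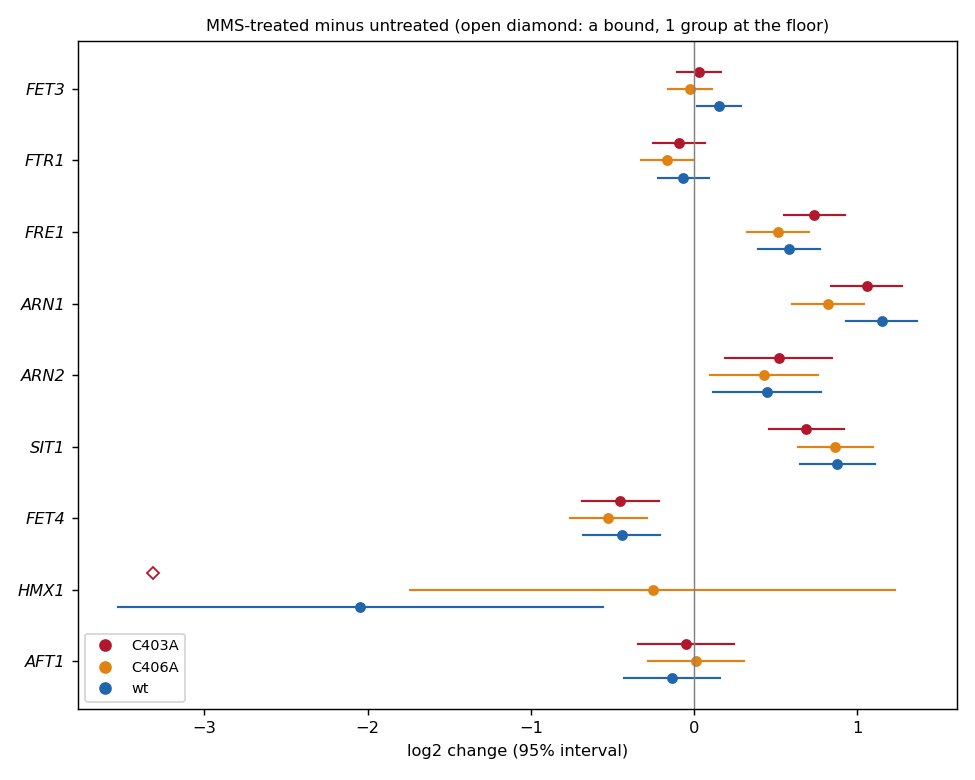
Log2 change of the 9 tested members with MMS (treated minus untreated, horizontal axis) in C403A, C406A and wt, with 95% intervals from the fit over all genes. The open diamond marks HMX1 in C403A, where the treated arrays lie at the floor and the value is a bound without an interval. FRE1, ARN1, ARN2 and SIT1 lie right of 0 in all 3 strains, FET4 lies left of 0 at -0.45, -0.53 and -0.44, and FET3, FTR1 and AFT1 lie within 0.17 of 0.

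Set against wt, 2 of the 7 members rose in untreated C403A and 1 of 7 in untreated C406A, and none fell. With MMS the counts were 2 of 7 in C403A and 1 of 7 in C406A, again all higher. The background was 9.17% of all genes higher and 4.97% lower in untreated C403A, 1.83% and 0.876% in untreated C406A, 7.47% and 6.09% in treated C403A, and 2.72% and 1.81% in treated C406A. Each pair of mutant comparisons shares the wt arrays of its treatment. The medians of the 7 members were 0.22 and 0.20 in untreated C403A and C406A and 0.19 and 0.18 in the treated mutants, beside all-gene medians of 0.03, 0.00, 0.01 and -0.02.

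ARN1 was the member that passed in every mutant comparison. It had 871.3 and 908.5 in untreated C403A and 747.6 and 845.7 in untreated C406A, against 499.1 and 404.9 in untreated wt. ARN1 was 1.98-fold higher in untreated C403A (0.98 ± 0.10 SE, limma adjusted p = 0.000567) and 1.77-fold higher in untreated C406A (0.82 ± 0.10, adjusted p = 0.00433). With MMS it was 1.86-fold higher in C403A (0.89 ± 0.10, adjusted p = 0.00072) and 1.41-fold higher in C406A (0.50 ± 0.10, adjusted p = 0.0242). The treated C406A call was lost without either treated wt array (adjusted p = 0.121 and 0.0765) or either treated C406A array (0.0759 and 0.113). Both C406A calls were also lost on the values as deposited, with ARN1 differences of 0.60 untreated (adjusted p = 0.396) and 0.48 with MMS (0.636), and with arrays scaled to hybridization controls, at 0.51 (0.112) and 0.54 (0.156).

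SIT1 rose in C403A against wt, 1.61-fold untreated (0.69 ± 0.10 SE, limma adjusted p = 0.00302) and 1.42-fold with MMS (0.50 ± 0.10, adjusted p = 0.0126). In C406A its differences were 0.42 untreated (adjusted p = 0.0641) and 0.41 with MMS (adjusted p = 0.0556), and both passed when an untreated C403A array was left out, with adjusted p of 0.0459 or 0.0464 untreated and 0.041 or 0.0409 with MMS. The treated C403A call for SIT1 was lost without treated wt array 1 (0.40, adjusted p = 0.0831), treated C403A array 1 (0.48, 0.0767) or treated C403A array 2 (0.53, 0.0531). Scaled to hybridization controls, the SIT1 differences in C403A were 0.48 untreated (adjusted p = 0.0527) and 0.22 with MMS (0.295). ARN2 was higher by 0.34 and 0.41 in untreated and treated C403A and by 0.20 and 0.18 in untreated and treated C406A, and none of these differences passed (limma adjusted p = 0.154, 0.0982, 0.545 and 0.538).

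FET4 ran against the siderophore transporters. Its gene product is a low affinity ferrous iron transporter of the plasma membrane, and besides Aft1 its gene is known to be under the zinc activator Zap1 and the hypoxic repressor Rox1. FET4 had 122.1 and 124.7 in treated C403A against 176.8 and 161.1 untreated. In C406A it had 179 and 193 with MMS against 248 and 288.8 untreated, and in wt 335.1 and 357.7 with MMS against 475.8 and 466.2 untreated. From high to low the groups ran untreated wt, treated wt, untreated C406A, treated C406A, untreated C403A, treated C403A, and no neighbours in this order overlapped.

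In untreated C403A, FET4 was 2.79-fold lower than in untreated wt (log2 change -1.48 ± 0.11 SE, 95% interval -1.72 to -1.25). Of the 5368 genes it stood at rank 12 from the lowest change. In untreated C406A it was 1.76-fold lower (-0.82 ± 0.11, interval -1.05 to -0.58), at rank 28. With MMS the FET4 differences from wt were -1.49 ± 0.11 in C403A (2.81-fold lower, rank 7) and -0.90 ± 0.11 in C406A (1.86-fold lower, rank 47). The gap between the 2 mutants was not tested. FET4 was singled out for its changes on these arrays, so these ranks and intervals are descriptions and no evidence.

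The MMS change of FET4 was of like size in the strains: 1.37-fold lower in C403A (-0.45 ± 0.11 SE), 1.44-fold lower in C406A (-0.53 ± 0.11) and 1.36-fold lower in wt (-0.44 ± 0.11). Its MMS change in C403A minus that in wt was -0.01 ± 0.15 (95% interval -0.34 to 0.33), and in C406A minus that in wt -0.08 ± 0.15 (interval -0.42 to 0.25). This MMS change depended on how arrays were scaled. On the values as deposited FET4 changed by -0.18, -0.04 and -0.16 in C403A, C406A and wt, where the median of all genes moved by 0.27, 0.43 and 0.24. Relative to the all-gene median of each scaling, the FET4 change with MMS was -0.45 to -0.47 in C403A, -0.47 to -0.53 in C406A and -0.40 to -0.46 in wt over the 4 scalings. Apart from quantile normalization, the scalings differ only by a factor for each array. Taking off the median largely removes that factor, so the closeness of these values was mostly built in. It cannot show whether the all-gene median itself stayed level with MMS. With the floor at the 40th percentile, which the treated C403A arrays do not exceed, the C403A change was -0.19.

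**Figure D3:**
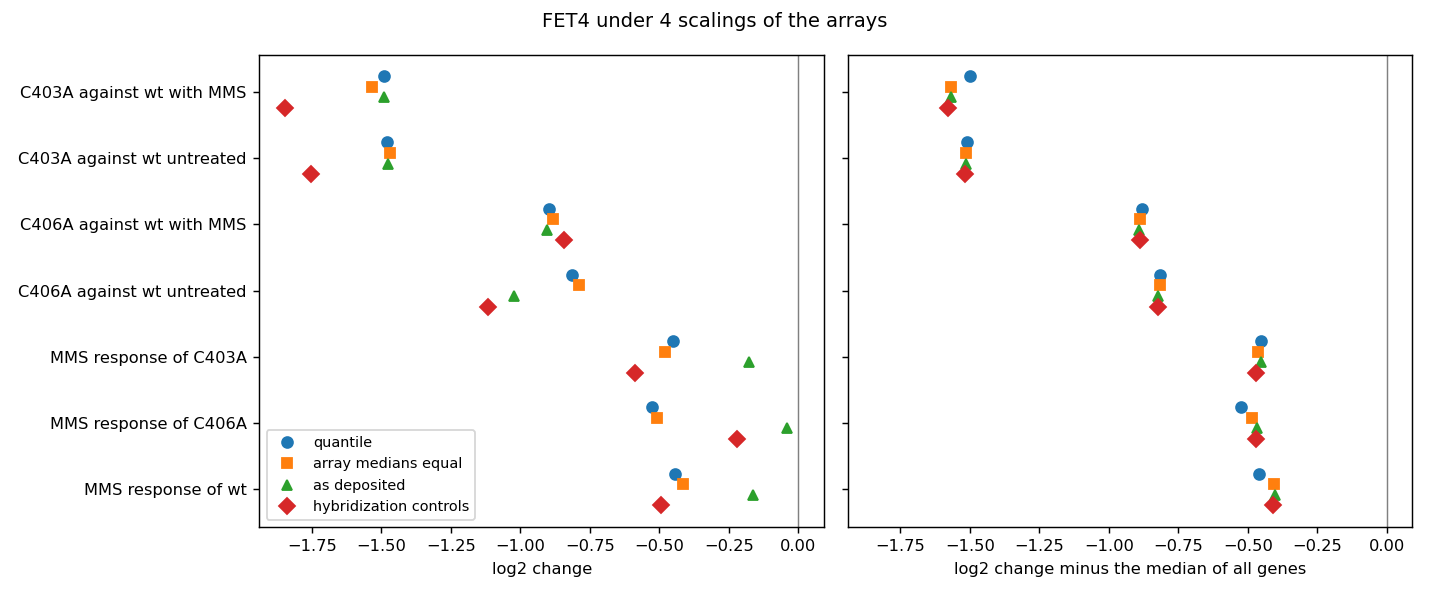
FET4 log2 change (horizontal axis) in the 7 comparisons between groups under 4 scalings of the arrays. The left panel gives the change itself and the right panel the change minus the median change of all genes under the same scaling. On the left the MMS responses spread from -0.59 to -0.04, and on the right they lie between -0.53 and -0.40. Taking off the median largely removes a factor for each array, so the narrow spread on the right was mostly built in.

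HMX1, the haem oxygenase, was the most uneven member. It gave -75.13 and -1.70 in treated C403A, both below the floor, against 525.9 and 224.3 untreated. In C406A it had 357.4 and 435.1 with MMS, against 472.3 and 468.3 untreated. In wt it had -152.6 and 203.6 with MMS, against 372.7 and 320.2 untreated. Treated arrays lay below untreated ones within each strain, but the arrays of treated wt and of untreated C403A stood far apart.

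With the treated arrays at the floor, HMX1 was at least 9.97-fold lower with MMS in C403A, a bound set by the floor (log2 change -3.32). This bound was -1.21 on the log2 scale with the floor at the 40th percentile and -2.70 without untreated C403A array 1. In wt its log2 change with MMS was -2.04 ± 0.66 (SE, 95% interval -3.53 to -0.56) and in C406A -0.25 ± 0.66 (interval -1.74 to 1.23). This SE is shared by all groups, while the log2 SD was 1.81 in treated wt, 0.87 in untreated C403A and 0.20 in treated C406A. The intervals therefore do not give the spread of the C406A arrays alone, and they are descriptions since HMX1 was singled out. The wt value turned on 1 array: it was -0.76 without treated wt array 1, which was at the floor, and -3.33 without treated wt array 2. It also followed the floor itself, with -0.99 for a floor at the 40th percentile and -4.60 with values under 1 set to 1. The C406A change turned positive on the values as deposited (0.23) and with hybridization controls (0.05).

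Treated C406A carried more HMX1 signal than treated wt, by 2.24 ± 0.66 on the log2 scale, a size set partly by the floor since 1 of 2 treated wt arrays lay there. That difference was 1.18 with the floor at the 40th percentile, 4.79 with values under 1 set to 1, 0.95 without treated wt array 1 and 3.52 without treated wt array 2. Untreated mutants differed from untreated wt by -0.01 ± 0.66 in C403A and 0.44 ± 0.66 in C406A, with intervals that hold 0 (-1.49 to 1.48 and -1.04 to 1.93). The untreated C406A arrays nonetheless lay above both untreated wt arrays, while those of untreated C403A overlapped wt. The treated C403A and treated wt groups overlapped at the floor.

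AFT1 signal, a measure of the activator's RNA and not of its place in the cell, was level. AFT1 had 403.7 and 404.3 in treated C403A against 476.1 and 366.7 untreated, 407.7 and 422.7 in treated C406A against 436.9 and 388 untreated, and 362.5 and 344.9 in treated wt against 423 and 357.1 untreated. The groups of each strain overlapped. MMS changes of AFT1 were -0.05, 0.01 and -0.14 in C403A, C406A and wt (SE 0.13 each, limma adjusted p = 0.864, 0.965 and 0.464), with 95% intervals lying between -0.43 and 0.31. Differences from wt ran from 0.08 in untreated C406A to 0.23 in treated C406A, and none passed.

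**Figure D4:**
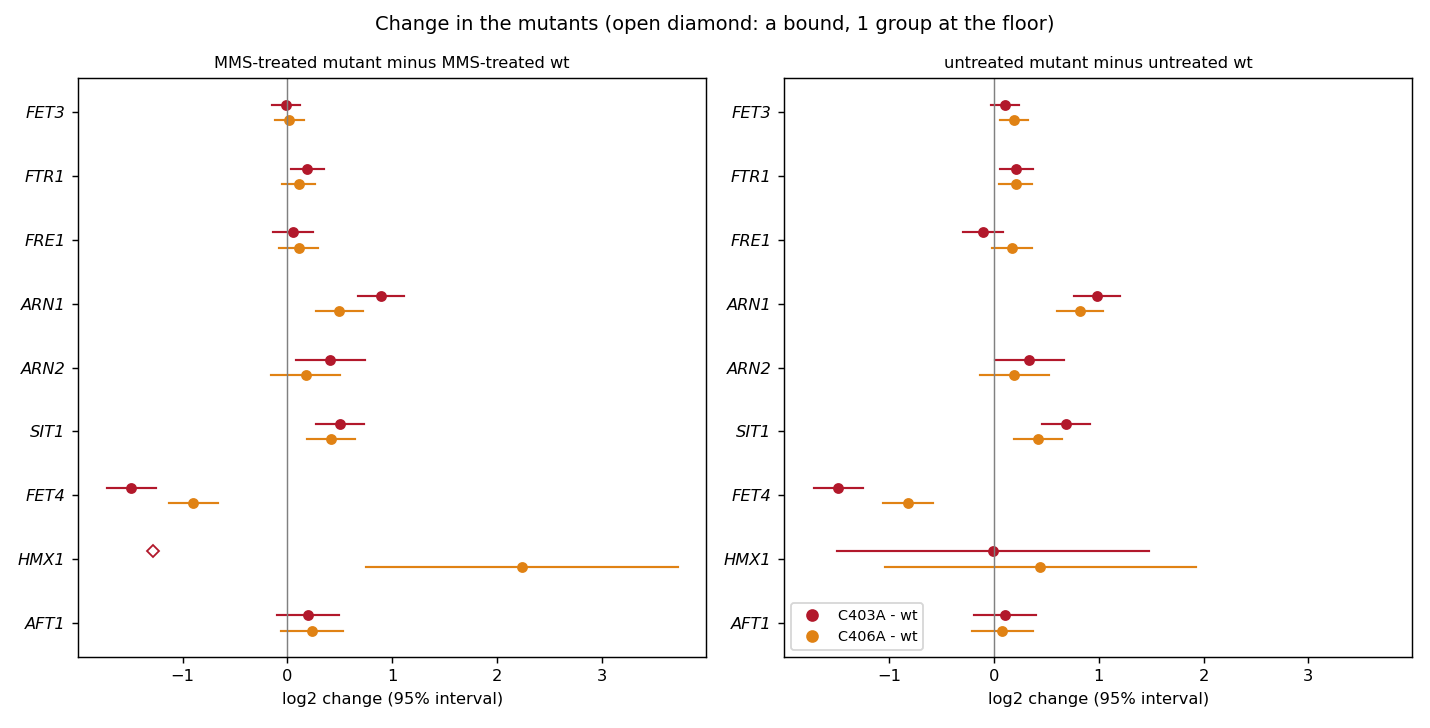
Log2 difference of the 9 tested members between each mutant and wt (horizontal axis), with MMS on the left and untreated on the right, with 95% intervals. The open diamond marks HMX1 in treated C403A, which lies at the floor. FET4 lies at -1.49 and -0.90 with MMS and at -1.48 and -0.82 untreated, and ARN1 and SIT1 lie right of 0 in all 4 comparisons.

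The MMS responses of the mutants were also set against that of wt. In this interaction test, 0 of the 7 members given with a p passed for C403A and 0 for C406A, and at an unadjusted p under 0.05 the counts were 0 and 1, where ARN1 responded by 0.33 less in C406A than in wt (limma adjusted p = 0.569). Over all genes 0.987% passed for C403A and 0% for C406A, with 871 and 451 genes at an unadjusted p under 0.05. HMX1, which was not tested, had an MMS change 1.79 ± 0.94 (SE, 95% interval -0.31 to 3.89) above that of wt in C406A, at rank 4 from the highest of 5368 genes. In C403A it was -1.27 ± 0.94 (interval -3.37 to 0.83) from that of wt, at rank 24 from the lowest. Both HMX1 values rest on groups with arrays at the floor. HMX1 was singled out for its changes on these arrays, so these ranks are descriptions and no evidence.

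The other genes of iron supply and metal handling came from 10 lists with 69 genes, of which 66 were tested. FRA2 had no probe set of its own, and FRE5 and DAN1 were left out by the filter. Set against wt, 8 were higher and 7 lower in untreated C403A, and 4 and 3 in untreated C406A. With MMS, 7 were higher and 5 lower in C403A than in wt, and 4 and 4 in C406A. Among all genes these shares were 9.17% and 4.97%, 1.83% and 0.876%, 7.47% and 6.09%, and 2.72% and 1.81%, in the same order. With MMS, 10 rose and 10 fell in C403A, 14 rose and 13 fell in C406A, and 15 rose and 15 fell in wt. Among all genes 8.42% rose and 7.13% fell in C403A, 12.7% and 11.2% in C406A, and 19.1% and 13.8% in wt. The wt rises lie nearer their background share than the wt falls do, and no count was tested against its share. In C403A the total dropped to 12 without treated C403A array 1, and in C406A to 14 without untreated C406A array 2.

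TIS11, ISU2 and MRS4 had the largest MMS changes of the listed genes that passed in C403A, while in wt the hypoxic gene CYC7 changed more. MRS4, a mitochondrial iron carrier, had 582.4 and 548.1 in treated C403A against 234.1 and 243 untreated, 607.5 and 607 in treated C406A against 224.3 and 220 untreated, and 650 and 604.5 in treated wt against 204.9 and 200.6 untreated. MRS4 rose 2.37-fold, 2.73-fold and 3.09-fold in C403A, C406A and wt (log2 changes 1.24, 1.45 and 1.63, SE 0.08, limma adjusted p = 2.15e-05, 1.17e-05 and 3.98e-06). Of the 9 tested iron and manganese transporters on its list, 1 rose in C403A and 2 each in C406A and wt, and none fell. Among all genes 8.42%, 12.7% and 19.1% rose in C403A, C406A and wt, so these counts lie near the background.

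TIS11, also called CTH2, encodes an mRNA-binding protein that lowers mRNAs of iron-using proteins when iron is short. It had 722.4 and 741.4 in treated C403A against 236.6 and 212.6 untreated, 704.7 and 651.6 in treated C406A against 253.4 and 257.4 untreated, and 501.4 and 536.9 in treated wt against 161.7 and 163.2 untreated. TIS11 rose with MMS by 1.71, 1.41 and 1.68 on the log2 scale (SE 0.09, limma adjusted p = 5.06e-06, 2.15e-05 and 4.33e-06 in C403A, C406A and wt). Its untreated mutants stood above untreated wt by 0.47 in C403A (adjusted p = 0.00812) and 0.65 in C406A (adjusted p = 0.00513), a C406A call that ended without untreated C406A array 2 (0.64, adjusted p = 0.0544). Scaled to hybridization controls, these TIS11 differences were 0.17 and 0.32 and did not pass. Its relative CTH1 rose by 0.50, 0.80 and 0.94 in C403A, C406A and wt (SE 0.11, limma adjusted p = 0.0137, 0.00085 and 0.000218). The C403A call for CTH1 was lost without untreated C403A array 1 (adjusted p = 0.0529) or treated C403A array 1 (0.42, 0.105). Of 7 iron regulators tested, 2 rose in C403A and 3 each in C406A and wt, and none fell, where 8.42%, 12.7% and 19.1% of all genes rose.

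ISU2, a scaffold protein on which iron-sulfur clusters are built, had 2795 and 2775 in treated C403A against 1172 and 1062 untreated, 2424 and 2412 in treated C406A against 1180 and 1084 untreated, and 2026 and 1989 in treated wt against 915.3 and 932.8 untreated. ISU2 rose by 1.32, 1.10 and 1.12 on the log2 scale in C403A, C406A and wt (SE 0.06, limma adjusted p = 4.15e-06, 1.55e-05 and 7.01e-06). Of 10 assembly genes tested, 1 rose and 1 fell in C403A, 3 rose in C406A, and 3 rose and 1 fell in wt. Among all genes 8.42% rose and 7.13% fell in C403A, 12.7% and 11.2% in C406A, and 19.1% and 13.8% in wt. The list median stayed at 0.11, 0.02 and 0.08.

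Copper reaches Fet3 through the transporter Ccc2, whose gene rose with MMS in each strain (CCC2 log2 changes 0.45, 0.56 and 0.61, SE 0.07, limma adjusted p = 0.00335, 0.000712 and 0.000252 in C403A, C406A and wt), although scaled to hybridization controls the C403A change of 0.37 did not pass (adjusted p = 0.219). With MMS, 2 of the 6 copper genes rose and 1 fell in C403A, 1 rose and 2 fell in C406A, and 1 rose and 0 fell in wt. Among all genes 8.42% rose and 7.13% fell in C403A, 12.7% and 11.2% in C406A, and 19.1% and 13.8% in wt. CTR3 fell by 0.44 in C403A and 0.42 in C406A, and MAC1 fell by 0.62 in C406A (limma adjusted p = 0.0471, 0.0417 and 0.0298). These falls did not hold in 5, 4 and 4 of 9 other settings. CTR1, the high affinity copper transporter of the plasma membrane, fell in C403A against wt by 0.59 untreated (adjusted p = 0.00581) and by 0.80 with MMS (adjusted p = 0.00146). It had 822.4 and 899.6 in treated C403A, against 1490 and 1499 in treated wt. On the values as deposited, the CTR1 differences in C403A were -0.56 and -0.68 with adjusted p of 0.204 and 0.0924. In C406A, CTR1 was lower than in wt by 0.46 untreated (limma adjusted p = 0.0458) and by 0.47 with MMS (adjusted p = 0.0335). These C406A calls did not hold in 5 and 6 of 9 other settings. Of the 6 copper genes tested, 2 fell in each C403A comparison with wt and none rose, where 4.97% of all genes fell untreated and 6.09% with MMS. Beside CTR1 this was CTR3, lower by 0.68 untreated and by 0.87 with MMS (limma adjusted p = 0.0089 and 0.0031), which did not hold in 2 of 9 other settings each. Against wt, 1 fell in untreated and 2 in treated C406A, where 0.876% and 1.81% of all genes fell.

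FIT2, one of 3 cell wall mannoproteins that help retain siderophores, had 1619 and 1194 in treated C403A against 741 and 766.8 untreated, and 829.9 and 732.2 in treated wt against 576.7 and 561.9 untreated. FIT2 rose by 0.88 in C403A (SE 0.13, limma adjusted p = 0.00264), and treated C403A stood 0.83 above treated wt (adjusted p = 0.00431). C406A stood above wt in FIT2 by 0.62 untreated (adjusted p = 0.0436) and by 0.62 with MMS (adjusted p = 0.0335). Each of these C406A differences did not pass in 5 of 9 other settings. FIT2 also rose by 0.45 in C406A and 0.45 in wt (limma adjusted p = 0.0347 and 0.0266), calls lost without any 1 C406A array (adjusted p = 0.0518 to 0.202), and without untreated wt array 1 (0.0759), untreated wt array 2 (0.106) or treated wt array 1 (0.154). Of the 3 cell wall genes FIT2 alone rose with MMS in each strain, where 8.42%, 12.7% and 19.1% of all genes rose in C403A, C406A and wt. FIT3 fell in wt (-0.29, limma adjusted p = 0.0129), where 13.8% of all genes fell. FIT3 was also lower in untreated C403A than in untreated wt (-0.25, limma adjusted p = 0.0465), a call that did not hold in 6 of 9 other settings. The medians of the 3 with MMS were -0.13, -0.13 and -0.29 in C403A, C406A and wt. ENB1, the enterobactin transporter of the Arn family, rose with MMS by 0.43, 0.33 and 0.69 in C403A, C406A and wt (SE 0.08, limma adjusted p = 0.00703, 0.0157 and 0.000223). The ENB1 call was lost in C403A without treated array 1 (0.37, adjusted p = 0.0599), and in C406A without untreated array 1 (0.0899), untreated array 2 (0.0636) or treated array 1 (0.0923). Among the 5 other reductases tested, FRE3 was the only one to rise with MMS in wt (0.76 ± 0.18, limma adjusted p = 0.0102). As 19.1% of all genes rose there, this count lies near the background. The FRE3 call did not hold in 2 of 8 other settings. Its change was 0.61 without untreated wt array 2 and 0.56 without treated wt array 1. None of the 5 rose or fell with MMS in C403A or C406A. Against wt, FRE3 was higher and FRE4 lower in untreated C403A (0.87 and -0.89, limma adjusted p = 0.0135 and 0.0238). In treated C403A, FRE6 was higher and FRE7 lower (0.53 and -0.56, adjusted p = 0.0269 and 0.00651). Each of these calls against wt failed in 2 or 3 of the other settings.

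Genes of haem synthesis changed both ways with MMS, with list medians of -0.04, -0.02 and 0.02 in C403A, C406A and wt. HEM1, which encodes 5-aminolevulinate synthase, fell by 0.69 in C403A and 0.49 in C406A (SE 0.10, limma adjusted p = 0.00264 and 0.00906), and it also passed as lower in wt. The C406A call for HEM1 was lost without untreated C406A array 2 (adjusted p = 0.0526). HEM13, the oxygen-using coproporphyrinogen oxidase, fell by 0.47, 0.42 and 0.52 in C403A, C406A and wt (SE 0.07, limma adjusted p = 0.002, 0.00206 and 0.000389). HEM15, ferrochelatase, which inserts iron into haem, rose by 0.34, 0.46 and 0.56 in C403A, C406A and wt (SE 0.07, limma adjusted p = 0.0105, 0.00141 and 0.000313). The C403A call for HEM15 was lost without untreated array 1 (adjusted p = 0.0572), treated array 1 (0.0562) or treated array 2 (0.058). As deposited, HEM13 changed by -0.16, 0.05 and -0.28 and did not pass in any strain. Over 9 other settings the HEM1 change in C406A ran from -0.54 to -0.07. HEM3 fell in wt (-0.75, limma adjusted p = 0.0224), while HEM12 rose in wt (0.27, adjusted p = 0.0283) and in C406A (0.25, adjusted p = 0.0499). The HEM12 calls did not hold in 3 of 9 other settings in wt and 4 of 9 in C406A. Of the 8 haem genes tested, 1 rose and 2 fell in C403A, 2 rose and 2 fell in C406A, and 2 rose and 3 fell in wt. Among all genes 8.42% rose and 7.13% fell in C403A, 12.7% and 11.2% in C406A, and 19.1% and 13.8% in wt.

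**Figure D5:**
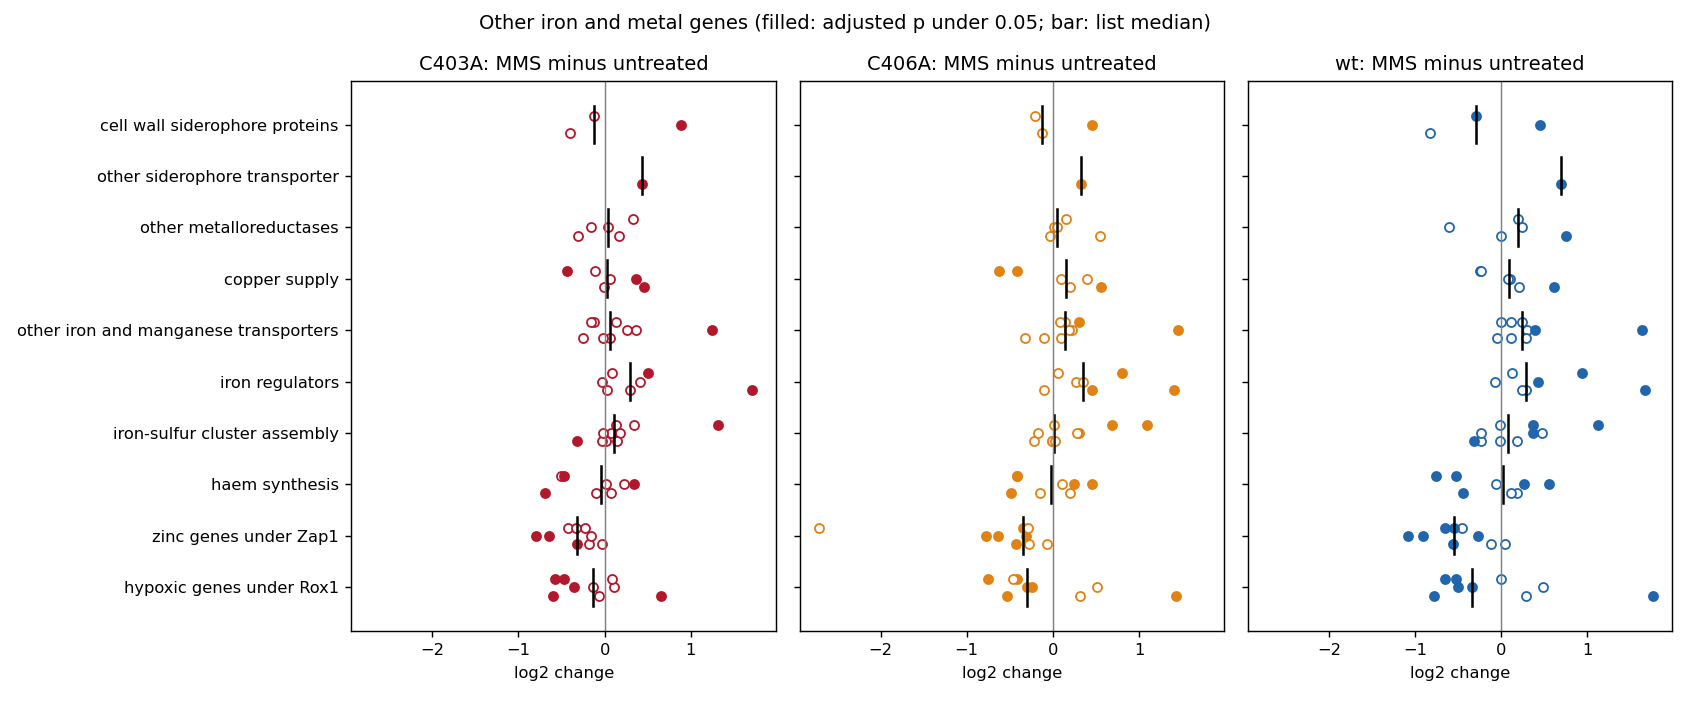
Log2 change with MMS (horizontal axis) of each tested gene of the 10 lists, 1 panel per strain, with filled points for an adjusted p under 0.05 and a bar at the list median. The zinc gene at the far left in C406A is ZRT2, with 1 of 2 treated arrays at the floor. MRS4, TIS11 and ISU2 are the rightmost points of their lists in each strain.

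Across the 12 arrays, the genes closest to FET4 by Pearson correlation of normalized log2 intensity were FCY21 (r = 0.979), DSE2 (0.977) and HO (0.970), out of 2445 genes whose group means spanned at least 0.5. Closest to HMX1 were SEN15 (0.940), ACS1 (0.913) and DIA3 (0.907), and closest to FET3 were AGX1 (0.817), MED8 (0.813) and AMS1 (0.808). The floor entered these values, and HMX1 lay above it on only 9 of the 12 arrays. FET3 group means ran only from 11.63 to 11.83, less than the 0.5 asked of the genes searched. The 12 arrays share 6 groups, so these are descriptions with no test. Members were left out of this search.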

How the data were processed

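The deposited values are one-colour intensity signals per probe set, 9335 on each of 12 Affymetrix arrays, linear as the file headers and values show; 8.95% lay below 0. The probe summary and any scaling before deposit are not given in the sources used here. Medians of the arrays lay between 184 and 310.2 (ratio 1.69), above the limit of 1.5 set for quantile normalization, which was run without the 60 controls. Values were floored at the 20th percentile and log2 transformed. Of the probe sets 6504 had 1 gene, 328 several and 2503 none; the brightest was taken per gene, and 288 genes above the floor on fewer than 2 arrays were left out.

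The 6 groups were modelled together in limma 3.58.1 under R 4.3.3 (lmFit, then eBayes with a trend, 6 residual and 3.53 prior degrees of freedom) for 9 comparisons, with Benjamini-Hochberg adjustment, and the scripts were tested on simulated data. Figures were drawn with matplotlib 3.10.9. Members and lists were chosen with earlier results of these data known. Named genes are all members, SSL1, MAG1, up to 2 genes each way of a list among those with the largest change that passed, and the 3 genes nearest to FET4, HMX1 and FET3. Per the file headers all arrays were scanned on 1 day, with the strains in turn and untreated before treated in each, so that strain and treatment cannot be told apart from scan order. Precision is limited by 2 arrays per group. Alternatives were other scalings, floors, filters and probe set rules, no trend, only the compared groups, and leaving out each array.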

Additional observations from a re-analysis of the deposited data

How the results depend on the processing

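Direction was stable for the members that passed: none of their called changes reversed under any alternative. The number of members that passed depended on scaling and on which arrays entered the fit. Scaled to hybridization controls, it was 2 rather than 4 for MMS in wt, 1 rather than 2 for C403A untreated and treated, and 0 rather than 1 for C406A untreated and treated. Of all 5388 genes tested there, 821, 334, 517, 74 and 46 passed in these comparisons, in that order. In the main fit 1770, 759, 728, 145 and 243 of 5368 passed. As deposited, the number of members was 1 for treated C403A and 0 for untreated and treated C406A, where 78, 15 and 37 of 5381 genes passed. With only the compared groups the number of members was 2 for MMS in C403A, 0 for C403A and C406A untreated, 1 for treated C403A and 0 for treated C406A. In that setting 106, 5, 0, 210 and 0 of all 5368 genes passed in these comparisons, so few or no calls were left for any gene. With the 40th percentile as floor the number of members was 2 for treated C406A, where 264 of 4634 genes passed. Leaving out 1 array gave 3 to 4 members for each MMS response, 2 to 3 and 1 to 2 for untreated C403A and C406A, 1 to 2 and 0 to 2 for the treated mutants, and 0 for both interactions.

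For the other iron and metal genes, MMS counts as deposited were 7 rather than 20 in C403A and 16 rather than 30 in wt. Among all genes tested, 367 rather than 835 and 795 rather than 1770 passed there. In C403A the MMS counts of the listed genes were 8 with hybridization controls and 5 with only the compared groups, where 211 and 106 of all genes passed. Untreated C403A gave 0 as deposited, 6 with hybridization controls and 0 with only the compared groups, rather than 15. Of all genes 97, 334 and 5 passed there, rather than 759. Untreated C406A gave 4 with equal medians, 0 as deposited, 1 with hybridization controls, 2 with no trend and 0 with only the compared groups, rather than 7. Of all genes 129, 15, 74, 119 and 0 passed there, rather than 145. Treated C403A gave 1 as deposited and 6 with only the compared groups, rather than 12, where 78 and 210 of all genes passed rather than 728. Treated C406A gave 4, 1, 0, 5 and 0 in the same 5 settings as untreated C406A, rather than 8. Of all genes 136, 37, 46, 140 and 0 passed there, rather than 243. Without 1 array the counts ran from 12 to 20, 14 to 30 and 20 to 32 for MMS in C403A, C406A and wt, 7 to 15 and 0 to 6 for untreated C403A and C406A, 7 to 12 and 1 to 9 for the treated mutants, and 0 to 1 for each interaction. The causes were not tested.

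Values that changed sign were HMX1 with MMS in C406A (0.23 as deposited, 0.048 with hybridization controls), HMX1 in untreated C403A against wt (0.012 with equal medians, 0.0036 as deposited, and -0.62 to 0.60 without 1 array, positive at 0.0998 without untreated wt array 1 and at 0.60 without untreated C403A array 2), CTR3 and HEM13 with MMS in C406A (0.052 and 0.046 as deposited) and ISU2 in untreated C406A against wt (-0.028 with hybridization controls). No paired analysis was possible because the labels number no replicates. Scaling moved the all-gene median with MMS by up to 0.43, and arrays at the floor (11 of 12 for FRE2, 3 of 12 for HMX1) have no measured order.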

Other observations

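Of 9 zinc genes under Zap1 that were tested, 3 fell with MMS in C403A, 5 in C406A and 6 in wt, and none rose. Among all genes 7.13%, 11.2% and 13.8% fell. The zinc list had list medians of -0.32, -0.35 and -0.55 beside all-gene medians of 0.00, 0.00 and 0.02. ZRT1, the high affinity zinc transporter, changed by -0.65, -0.64 and -1.08 in C403A, C406A and wt (SE 0.09, limma adjusted p = 0.00132, 0.000886 and 3.71e-05). IZH1, a membrane protein linked to zinc balance, changed by -0.80, -0.78 and -0.91 (SE 0.08, limma adjusted p = 0.000289, 0.000242 and 5.07e-05). In untreated C403A, ZRT1 was the 1 zinc gene of 9 that differed from untreated wt, by -0.69 (limma adjusted p = 0.00143). On the values as deposited the MMS changes of ZRT1 in C403A and C406A were -0.34 and -0.19 and those of IZH1 -0.53 and -0.35, and none of these 4 passed.

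Hypoxic genes under Rox1 split. Of 9 tested, 4 fell with MMS in C403A and 5 each in C406A and wt, while 1 rose in each strain. The shares of all genes that fell were 7.13%, 11.2% and 13.8%, and those that rose 8.42%, 12.7% and 19.1%, in C403A, C406A and wt. OLE1, the fatty acid desaturase, changed by -0.57, -0.75 and -0.65 in C403A, C406A and wt (SE 0.10, limma adjusted p = 0.00522, 0.000755 and 0.000918). CYC7, the hypoxic form of cytochrome c, rose by 0.66, 1.43 and 1.76 in C403A, C406A and wt (SE 0.17, limma adjusted p = 0.0272, 0.000436 and 8.23e-05), with 1 of 2 untreated wt arrays at the floor. The C403A call for CYC7 was lost without untreated array 1 (0.50, adjusted p = 0.141), treated array 1 (0.57, 0.156) or treated array 2 (0.74, 0.0693). On the values as deposited, OLE1 in C403A and C406A was at -0.36 and -0.40 and did not pass.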
